A study of Oryctolagus cuniculus with 4 samples.

Results

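The APOD CP HSD11B1 fibroblasts are 183 cells of the rabbit bladder mucosa, chosen from 21945 cells that passed quality limits in 4 single-cell RNA libraries. A cell counted as a fibroblast where the transcripts of decorin (DCN) and lumican (LUM) made up at least 0.5% of its unique molecular identifiers (UMIs, the counted transcripts) and it held no UMI of the leukocyte gene PTPRC or the endothelial gene PECAM1. Of the 7580 fibroblasts so gated, a cell was kept where it held a UMI of at least 2 of the 4 genes APOD, CP, HSD11B1 and CPB1, and more of these 4 than of any of 3 other sets of 4 genes. Those sets defined the other groups: SFRP2, PCOLCE2, MFAP5 and EFEMP1 (3590 cells), TCF21, EDIL3, BCHE and FAM162B (2064 cells), and WIF1, HHIP, PTPRQ and ADAM23 (140 cells). The group held 65 cells in Normal_1, 51 in Normal_2, 48 in Injury_1 and 19 in Injury_2. Normal_1 and Normal_2 were bladder mucosa of adult New Zealand rabbits at homeostasis, and Injury_1 and Injury_2 were mucosa taken on day 10 after a focal resection, when the wound had just been covered again. No transgene or drug was part of either condition, each library was 1 sample, and the study calls the 2 samples of a condition biological replicates.

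Fibroblasts of the mucosa lie under the urothelium and the vessels, lay down collagens and the ground substance, and send growth factors, chemokines and WNT or BMP signals to the cells around them. Subsets differ by position, and APOD (a secreted lipid-binding lipocalin) and CP (ceruloplasmin, a copper-carrying ferroxidase that helps iron leave cells) are known from perivascular and stromal fibroblasts of several organs. HSD11B1 is the reductase that turns inactive glucocorticoid back into its active form inside the cell, so a fibroblast that carries it can raise its own exposure to the hormone. CPB1 encodes carboxypeptidase B1, a protease that trims basic residues from the ends of proteins.

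The libraries held 28745017 to 47881609 UMIs in 5823 to 6884 barcodes, with Normal_1 the shallowest, and any pair of libraries shared 8 to 13 barcodes. Within the group the median cell held 4411 UMIs in Normal_1, 5208 in Normal_2, 7044 in Injury_1 and 7224 in Injury_2, so the cells of the injured samples were deeper, and in each sample this median was the lowest of the 4 groups. The summed counts behind each level of the group came to 282139, 265806, 344183 and 143747 UMIs in the same order. Levels are given below as CPM, the count scaled to a fixed total per summed library, always in the order Normal_1, Normal_2, Injury_1, Injury_2. Of the group's cells, 1, 1, 5 and 0 were among the 5% of their library with the highest doublet scores, which is 10.4% of the cells in Injury_1.

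The genes that chose the cells are described first, with no test, since the choice fixes that they are present. APOD was detected in every cell of the group, and CP in 78.5%, 78.4%, 79.2% and 78.9% of its cells. HSD11B1 was detected in 84.6%, 90.2%, 37.5% and 52.6%, and CPB1 in 1.54%, 5.88%, 39.6% and 21.1%. The normal cells were thus mostly chosen by APOD with HSD11B1 and CP. The injured cells more often held CP without HSD11B1, or CPB1, while the share with CP was alike in all samples. With each cell thinned to 2000 UMIs, the same order held, at 51.0%, 57.8%, 13.5% and 21.1% for HSD11B1 and at 0.67%, 2.08%, 28.1% and 12.4% for CPB1.

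As levels, APOD stood at 43961, 16674, 13711 and 4564 CPM in the group against 9935, 2735, 2357 and 1430 CPM in the other 3 groups together. CP stood at 276, 245, 282 and 320 CPM against 33.4, 20.5, 71.1 and 9.07 CPM. Its level in the group hardly moved between samples, but the choice of cells by CP helps to fix it. Over all gated fibroblasts CP was at 58.2, 29.2, 85.9 and 13.5 CPM. The HSD11B1 level was 308, 433, 69.7 and 118 CPM against 28.1, 63.2, 4.54 and 3.85 CPM, lower in both injured samples than in both normal ones, in the group and outside it. The CPB1 level was 3.54, 15.05, 517 and 216 CPM against 0.315, 0.577, 33.6 and 7.14 CPM, higher in both injured samples. The CPB1 counts were uneven between cells: 1 cell held 52 of the 178 UMIs in Injury_1 and 1 cell held 17 of the 31 in Injury_2.

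**Figure D1:**
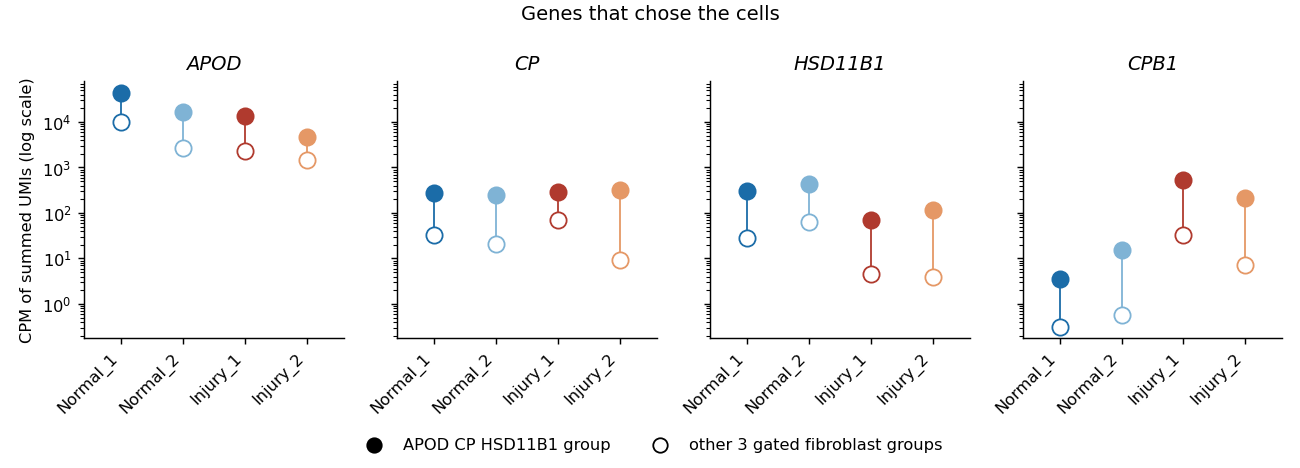
Level of the 4 genes that chose the cells, in CPM of summed UMIs on a log axis, for the APOD CP HSD11B1 group (filled points) and the other 3 gated fibroblast groups together (open points) in each of the 4 samples. CP stays between 245 and 320 CPM in the group, which the choice of cells helps to fix. HSD11B1 is lower and CPB1 higher in the injured samples.

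The cells differed among themselves in which of the 4 genes they carried. APOD, CP and HSD11B1 were found together in 41 of 65 cells of Normal_1, 35 of 51 of Normal_2, 11 of 48 of Injury_1 and 6 of 19 of Injury_2, or 93 of 183 cells (50.8%). HSD11B1 without CPB1 was found in 55, 43, 12 and 7 cells, CPB1 without HSD11B1 in 1, 0, 13 and 1 cells, and both genes in 0, 3, 6 and 3 cells. The remaining 9, 5, 17 and 8 cells held neither, and entered by APOD with CP. In Injury_1 the cells with CPB1 alone were about as many as those with HSD11B1 alone, which was the case in no other sample.

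**Figure D2:**
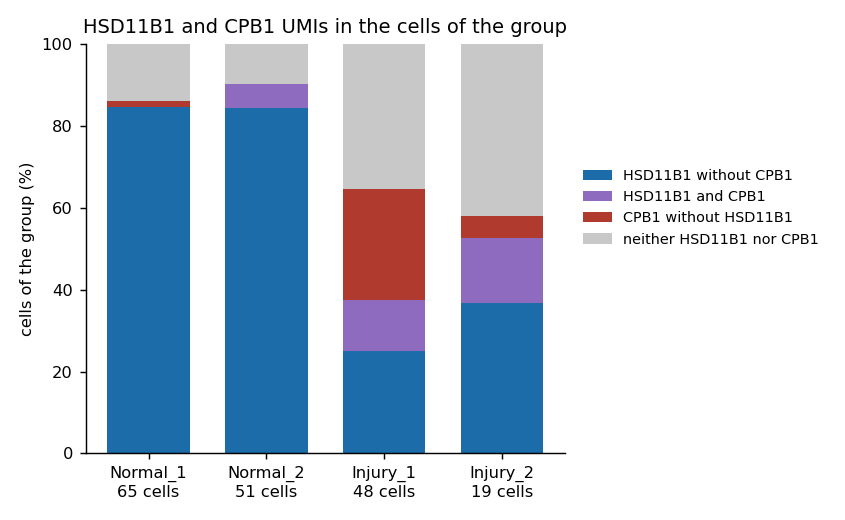
Share of the cells of the APOD CP HSD11B1 group in each sample (percent, with the number of cells under each bar) that held a UMI of HSD11B1 alone, of both HSD11B1 and CPB1, of CPB1 alone, or of neither. HSD11B1 without CPB1 makes up 84.6% and 84.3% of the normal cells and 25.0% and 36.8% of the injured cells.

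The edge of the group was not sharp. Among all gated fibroblasts, 311, 850, 641 and 244 cells held at least 2 of the 4 genes, and most of these were not kept because another set had as many (114, 167, 146 and 66 cells) or more of its genes (132, 632, 447 and 159 cells). Members ahead of the next set by 1 gene had APOD levels of 41573, 15226, 13194 and 4319 CPM, and cells just outside, with another set level, had 29075, 12636, 8051 and 8069 CPM. For HSD11B1 the same values were 295, 420, 75.9 and 129 CPM inside and 251, 314, 34.9 and 84.1 CPM outside. In Injury_2 the APOD level was higher just outside the group than just inside it.

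Detection of these genes was also counted outside fibroblasts, where it may come from free RNA or from the cells themselves, and which of them it was, was not tested. HSD11B1 was found in up to 0.90% of PECAM1-detected cells outside the gate and in 4.61%, 9.22%, 4.93% and 4.36% of PTPRC-detected cells, at median depths of 4625 to 6676 UMIs. Over all gated fibroblasts, before the choice of the group, it was found in 21.3%, 30.9%, 4.92% and 3.998% of cells, at median depths of 4972.5 to 8544.5 UMIs. In both injured samples the share in all fibroblasts was thus no higher than that in PTPRC-detected cells. CP and CPB1 were found in at most 0.795% and 0.318% of PECAM1- or PTPRC-detected cells in any sample, against 5.85% to 26.7% and 0.424% to 7.41% of gated fibroblasts. APOD was found in 14.4% to 21.4% of PECAM1-detected cells, and in 86.1% to 98.6% of all gated fibroblasts.

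The cells were checked against markers of fibroblasts and of other cell types. The 4 further fibroblast markers measured (COL1A1, COL1A2, COL3A1 and FBN1) were all present and summed to 20150, 36801, 49113 and 62735 CPM, against 43553, 72500, 78344 and 101714 CPM in the other 3 groups, so the group was lower in each sample. The 7 epithelial markers summed to 110, 26.3, 69.7 and 6.96 CPM with 3 to 6 of them at 0, against 103, 50.2, 117 and 60.8 CPM in the other 3 groups and 4153 to 7465 CPM in keratin-detected cells. The 5 endothelial markers summed to 10.6, 15.05, 52.3 and 27.8 CPM and the 5 leukocyte markers to 3.54, 15.05, 23.2 and 20.9 CPM, against at least 2655 and 4320 CPM in the PECAM1- and PTPRC-detected cells. The endothelial sum in the other 3 groups was 19.9, 32.6, 22.9 and 11.8 CPM, so the group was lower in the normal and higher in the injured samples. The 6 smooth muscle and pericyte markers summed to 63.8, 211, 134 and 174 CPM, below the 101, 470, 263 and 410 CPM of the other 3 fibroblast groups. The 4 glial markers summed to 0 to 17.4 CPM, the 2 mesothelial ones to 0 to 46.1 CPM, and the only adipocyte marker measured was at 0 in all 4 samples. A UMI of at least 1 of the 21 epithelial, endothelial, leukocyte and glial markers was nevertheless common, and the cells without any numbered 38 of 65, 40 of 51, 22 of 48 and 11 of 19.

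The group made up 6.89% of gated fibroblasts in Normal_1 (95% Wilson interval 5.44 to 8.68), 2.27% in Normal_2 (1.73 to 2.97), 2.39% in Injury_1 (1.81 to 3.15) and 0.800% in Injury_2 (0.513 to 1.25). These intervals cover counting error only. Normal_1 was high, Injury_2 was low, and the conditions overlapped, since Injury_1 exceeded Normal_2. The mean was 4.58% ± 3.27 (SD, n = 2) in normal and 1.59% ± 1.12 (SD, n = 2) in injured mucosa, a difference of -2.98 percentage points (two-sided exact permutation test, p = 0.667, where 2 samples against 2 cannot go below 0.3333). Because HSD11B1 was detected in 21.3% and 30.9% of all gated fibroblasts of the normal samples and in 4.92% and 3.998% of the injured ones, a lower number of such cells and a lower level of the gate genes cannot be told apart here.

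Against the other 3 fibroblast groups together, PRR16, AGTR1 and BMP2 were among the genes with the most steadily higher levels. LVRN, ITGBL1 and S100A4 were among those with the most steadily lower ones. Against the TCF21 EDIL3 group alone, BMP2, ITGBL1 and S100A4 did not keep their side in each sample. Since the group was chosen on these cells, the comparison is a description with no test, made as the log2 ratio of CPM + 10 within each sample. Of 1972 genes with at least 50 CPM on one side, leaving out the 20 genes of the gates, 205 (10.4%) were higher in the group in all 4 samples and 282 (14.3%) were lower. A ratio of at least 0.5 in all 4 samples was reached by 5 genes upward (0.254%) and 32 downward (1.62%).

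Among the genes that were higher, PRR16, which encodes a regulator of cell size, stood at 110, 75.2, 122 and 90.4 CPM in the group against 25.9, 19.0, 66.4 and 34.4 CPM outside it. AGTR1, the main angiotensin II receptor, stood at 67.3, 71.5, 174 and 132 CPM against 36.9, 32.0, 94.8 and 31.3 CPM. The lowest and highest log2 ratios over the samples were 0.79 and 1.74 for PRR16 and 0.72 and 1.78 for AGTR1, and both ratios lay above 0 in each sample.

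BMP2, a bone morphogenetic protein ligand, stood at 28.4, 158, 78.4 and 146 CPM against 15.5, 68.4, 48.1 and 46.7 CPM. TFPI, the inhibitor of the tissue factor pathway of clotting, stood at 514, 613, 293 and 348 CPM against 304, 212, 236 and 193 CPM. INMT, an enzyme that methylates indoleamines, stood at 1634, 2261, 886 and 946 CPM against 929, 1184, 693 and 302 CPM. All 3 genes were higher in the group in each sample, with log2 ratios from 0.59 to 1.46, 0.30 to 1.49 and 0.35 to 1.61.

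PLIN2, the coat protein of lipid droplets, stood at 649, 500, 991 and 417 CPM in the group against 480, 253, 572 and 277 CPM, with log2 ratios of 0.43 to 0.95. ACO1, which doubles as an iron-sensing regulator of mRNA, had ratios of 0.35 to 0.75, EPAS1, an oxygen-regulated transcription factor, 0.48 to 0.82, and ROBO2, a receptor for SLIT guidance cues, 0.46 to 1.10. CD302, a C-type lectin receptor, had 0.48 to 0.95, and NID2, which links laminin to collagen IV in basement membranes, 0.46 to 1.11. VCAN, the proteoglycan versican, had 0.40 to 1.20, and SPARCL1, a matricellular protein, 0.37 to 1.60. TMEM106B and WBP4 closed the set of 15 at 0.32 to 0.83 and 0.29 to 0.67. Of the 15 genes, 11 were also higher than in the SFRP2 PCOLCE2 group alone and than in the TCF21 EDIL3 group alone in all 4 samples. The exceptions were BMP2, ROBO2, PLIN2 and SPARCL1, each of which was below the TCF21 EDIL3 group in 1 injured sample, with SPARCL1 at -0.57 there. The lowest ratio to that group was only 0.020 for TMEM106B, 0.037 for WBP4 and 0.044 for EPAS1. The SFRP2 PCOLCE2 and TCF21 EDIL3 cells make up most of the pool that picked the 15 genes. The count of 11 is therefore no separate support.

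Among the genes that were lower, LVRN (laeverin, an aminopeptidase) stood at 14.2, 22.6, 26.1 and 6.96 CPM in the group against 138, 229, 238 and 283 CPM outside it. S100A4, a calcium-binding protein common in fibroblasts, stood at 415, 982, 1034 and 730 CPM against 3160, 3850, 3409 and 3786 CPM. IGFBP6, which binds insulin-like growth factor II, stood at 2864, 4661, 2101 and 2066 CPM against 5904, 10420, 4834 and 7732 CPM. In each sample all 3 genes were lower in the group, with highest log2 ratios of -2.62, -1.71 and -1.04.

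ITGBL1 had a highest ratio of -1.93, SEMA3C, a secreted semaphorin, of -1.51, and ANXA8, an annexin, of -1.41. COL8A1, a short-chain collagen, stood at 3.54, 15.05, 8.72 and 13.9 CPM against 46.7, 122, 30.6 and 94.4 CPM, with a highest ratio of -1.12. PDLIM1, ANXA3 and EMILIN2 followed at -1.005, -0.97 and -0.80. Of these 10 genes, 6 (LVRN, ANXA8, COL8A1, IGFBP6, PDLIM1 and ANXA3) were lower than in each of the larger groups alone in all 4 samples. The exceptions were ITGBL1, S100A4, SEMA3C and EMILIN2. The cells of these larger groups make up most of the pool that picked the 10 genes, so the count of 6 is no separate support. Against the TCF21 EDIL3 group alone, S100A4 had log2 ratios of -1.07, -0.12, 0.025 and -0.65, and ITGBL1 was higher in 3 of 4 samples, with ratios of -0.48 to 1.32. SEMA3C had -1.50 to 0.20 and EMILIN2 -0.38 to 0.56, each higher in the injured samples and lower in the normal ones. The difference lay mostly on the side of the SFRP2 PCOLCE2 group for LVRN, where the ratio was -4.62 to -3.07 against -1.26 to -0.08 for the TCF21 EDIL3 group. It lay mostly on the other side for COL8A1, with -1.41 to -0.06 against the SFRP2 PCOLCE2 group and -3.17 to -1.42 against the TCF21 EDIL3 group. The SFRP2 PCOLCE2 cells made up 49.2%, 45.7%, 77.9% and 66.6% of the other 3 groups, so the comparison itself was not the same mixture in each sample.

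**Figure D3:**
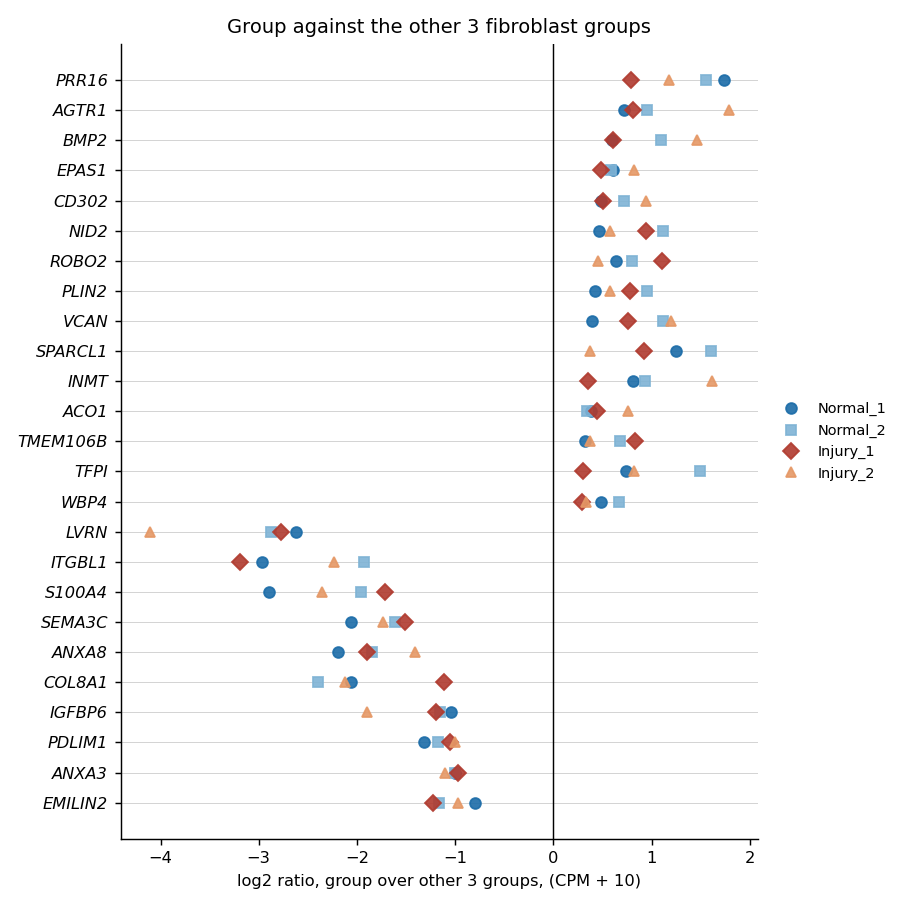
Log2 ratio of the level in the APOD CP HSD11B1 group over that in the other 3 gated fibroblast groups together, as CPM + 10, for the 15 genes named as higher and the 10 named as lower; each point is 1 of the 4 samples. PRR16 and AGTR1 lie at or above 0.72 and LVRN at or below -2.62 in each sample.

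Injured mucosa was compared with normal mucosa within the group by edgeR's quasi-likelihood test on the UMIs summed per sample, with Benjamini-Hochberg adjustment over the 2450 genes tested and the 20 genes of the gates left out of the count. The test called 22 genes (0.898%), of which 8 rose (0.327%) and 14 fell (0.571%) after injury, and 17 of the 22 carry a gene symbol. Called genes are named only where the conditions did not overlap, a rule that all 22 met. Mitochondrial genes of the quality limit were not left out of this count, and ATP8 was among those called. The genes that rose encode ligands and chemokines (EREG, CXCL8, CCL19, WNT2), matrix and protease-family proteins (COCH, CPXM1), a metalloreductase (STEAP4) and a galectin (LGALS3). Those that fell include MGP, SPARCL1, LPL, CYP4B1, KAZALD1 and NT5E. The median log2 fold change over all genes tested was -0.01, 319 genes had an unadjusted p under 0.05, and DESeq2 called 38.

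These calls depend on which cells enter. After removal of each cell with a UMI of any of 21 epithelial, endothelial, leukocyte or glial markers, 111 of the 183 cells were left and the test called 2 genes, COCH and MGP. Among the 129 cells with HSD11B1 it called 12 genes, 4 higher and 8 lower, and all 12 were among the 22. Among the 176 cells left without the highest doublet scores it called 9, all among the 22. The direction of change was the same in each of these alternatives for each of the 22 calls that could be tested there, 20 in the first and second and 22 in the third.

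EREG, epiregulin, a ligand of the epidermal growth factor receptor, had levels of 0, 7.52, 587 and 153 CPM. These were 0, 2, 202 and 22 UMIs, found in 18 cells of Injury_1 and 3 cells of Injury_2. The injured samples were high without overlap (log2 fold change 6.42, SE 0.97, adjusted p = 0.0380). The other 3 groups had 0, 0.577, 213 and 124 CPM, and the difference between the injury effects was -2.71 (SE 1.45, adjusted p = 0.885).

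COCH, cochlin, a secreted matrix protein, had levels of 10.6, 0, 482 and 390 CPM (log2 fold change 6.09, SE 0.64, adjusted p = 0.0117). It was found in 16 cells of Injury_1 and 7 of Injury_2, but 48 of the 56 UMIs of Injury_2 came from 1 cell. CCL19, a chemokine that draws CCR7-bearing lymphocytes and dendritic cells, had 3.54, 0, 125 and 97.4 CPM (log2 fold change 5.52, SE 0.74, adjusted p = 0.0202). The CCL19 UMIs came from 3 cells in Injury_1 and from 1 cell, with 14 of 14 UMIs, in Injury_2. For both genes the injured samples lay above the normal ones, and CCL19 in both injured samples and COCH in Injury_2 rested on very few cells.

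CXCL8, which draws neutrophils, had levels of 110, 391, 3120 and 2024 CPM and was found in 5, 8, 30 and 14 cells (log2 fold change 3.25, SE 0.54, adjusted p = 0.0455). PTPRC-detected cells outside the gate had 6574 to 20539 CPM of CXCL8, and the part of their RNA in this result was not tested. The other 3 groups had 178, 203, 2130 and 1666 CPM, and their injury effect differed from that in the group by -0.05 (SE 0.26, adjusted p = 0.999).

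WNT2, a WNT ligand, had levels of 39.0, 30.1, 180 and 167 CPM, in 10, 6, 30 and 11 cells (log2 fold change 2.20, SE 0.38, adjusted p = 0.0474). STEAP4, which reduces iron and copper ions for uptake, had 3.54, 7.52, 116 and 90.4 CPM (log2 fold change 4.04, SE 0.58, adjusted p = 0.0297). CPXM1, a member of the carboxypeptidase family, had 46.1, 15.05, 261 and 237 CPM, found in 37 and 13 cells of the injured samples (log2 fold change 2.88, SE 0.48, adjusted p = 0.0455). LGALS3, galectin-3, had 252, 211, 805 and 911 CPM (log2 fold change 1.77, SE 0.31, adjusted p = 0.0474). All 4 were higher in both injured samples than in both normal ones, and each was found in at least 7 cells of each injured sample.

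Among the genes that fell, MGP, matrix Gla protein, an inhibitor of calcification, had levels of 38286, 34480, 12926 and 14233 CPM (log2 fold change -1.54, SE 0.14, adjusted p = 0.00983). It was found in all 183 cells, and its call was kept in all 16 alternatives in which it was tested. The other 3 groups had 34352, 31208, 11728 and 10726 CPM, and the difference between the injury effects was -0.06 (SE 0.10, adjusted p = 0.989). SPARCL1 had 2555, 2792, 543 and 598 CPM (log2 fold change -2.35, SE 0.26, adjusted p = 0.0117). Both injured samples lay below both normal ones for each gene.

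LPL, lipoprotein lipase, which frees fatty acids from circulating triglyceride, had levels of 854, 418, 142 and 69.6 CPM (log2 fold change -2.64, SE 0.48, adjusted p = 0.0488). NT5E (CD73), the enzyme that makes adenosine outside the cell, had 361, 282, 61.0 and 83.5 CPM (log2 fold change -2.32, SE 0.36, adjusted p = 0.0415). KAZALD1, a secreted protein with a Kazal-type domain, had 833, 655, 20.3 and 111 CPM (log2 fold change -3.84, SE 0.64, adjusted p = 0.0455). The KAZALD1 UMIs of Injury_2 were 16, and 13 of them came from 1 cell. The injured samples did not overlap the normal ones in any of the 3 genes.

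CYP4B1, a cytochrome P450 that oxidises fatty acids and foreign compounds, had levels of 663, 707, 72.6 and 20.9 CPM (log2 fold change -3.81, SE 0.46, adjusted p = 0.0142). CRYAB and HSPA8, a small heat shock protein and a chaperone of the HSP70 family, had 2899, 4278, 1502 and 1204 CPM and 17031, 14383, 8487 and 8035 CPM. Their log2 fold changes were -1.52 (SE 0.27, adjusted p = 0.0488) and -1.05 (SE 0.17, adjusted p = 0.0455). ATP8, a subunit of ATP synthase encoded by the mitochondrial genome, had 383, 327, 116 and 97.4 CPM (log2 fold change -1.83, SE 0.32, adjusted p = 0.0488), while the median mitochondrial share per cell was 8.12%, 8.62%, 8.26% and 8.50%. ATP8 is also among the 13 genes of the 15% mitochondrial limit, so this test used a gene that helped choose the cells. All 4 genes were lower in both injured samples.

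Of the genes named, 9 missed the threshold when 1 library or another was left out, with the direction unchanged. Without Normal_2 the adjusted p was 0.0511 for EREG, 0.0808 for WNT2, 0.0551 for LGALS3 and 0.0531 for CRYAB. Without Injury_1 it was 0.0619 for CCL19, 0.171 for STEAP4, 0.0544 for NT5E and 0.0698 for ATP8, and without Injury_2 it was 0.0502 for LGALS3 and for HSPA8, 0.0841 for ATP8 and 0.113 for CRYAB. The log2 fold changes were then 9.59 for EREG, 2.02 for WNT2, 1.64 and 1.68 for LGALS3, -1.23 and -1.37 for CRYAB, 5.29 for CCL19, 3.83 for STEAP4, -2.03 for NT5E, -1.95 and -1.72 for ATP8 and -1.005 for HSPA8. Since Normal_1 held no EREG UMI, the EREG value without Normal_2 depends on the prior count and is no measure of size. Over all alternatives the highest adjusted p of these genes was 0.108 for EREG, 0.205 for WNT2, 0.195 for LGALS3, 0.284 for CRYAB, 0.0662 for CCL19, 0.171 for STEAP4, 0.0945 for NT5E, 0.120 for ATP8 and 0.193 for HSPA8. Without Normal_1 all 22 genes were called.

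**Figure D4:**
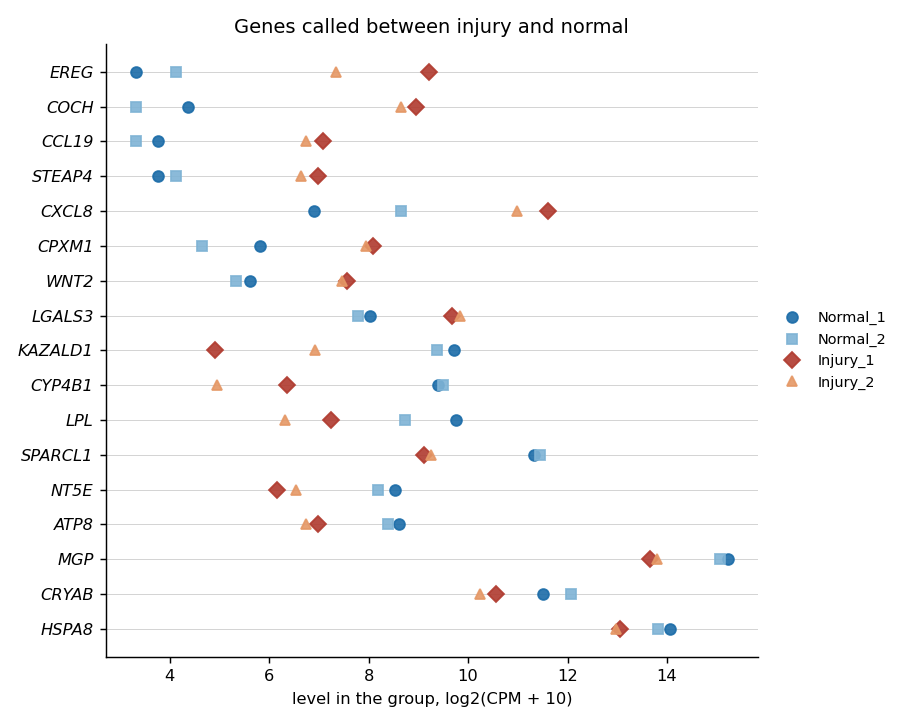
Level in the APOD CP HSD11B1 group, as log2(CPM + 10), of the 17 genes with a symbol that were called between injured and normal mucosa; each point is 1 of the 4 samples, with circles and squares for normal and diamonds and triangles for injured mucosa. The normal and the injured points do not overlap in any gene shown, which the rule for naming called genes required.

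Whether the cells with and without HSD11B1 carried these changes alike was looked at as a description, since the split uses a gene of the gate. The cells with HSD11B1 gave sums of 240361, 245222, 132748 and 79101 UMIs, and those without gave 41778, 20584, 211435 and 64646 UMIs. SPARCL1 was at 2708, 2577, 520 and 733 CPM with HSD11B1 and at 1676, 5344, 558 and 433 CPM without it, so the injured samples were low on both sides of the split. MGP was at 39324, 34214, 13680 and 16700 CPM with HSD11B1 and at 32314, 37651, 12453 and 11215 CPM without it.

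CXCL8 was at 129, 371, 1959 and 1960 CPM in the cells with HSD11B1 and at 0, 632, 3850 and 2104 CPM in those without it. CCL19 was at 0, 0, 30.1 and 0 CPM with HSD11B1 and at 23.9, 0, 184 and 217 CPM without it, so its UMIs in Injury_2 came from the cells without the reductase. COCH was at 911 and 50.6 CPM in the HSD11B1 cells of Injury_1 and Injury_2 and at 213 and 804 CPM in the others, with no common order between the samples. LGALS3 was at 241, 216, 497 and 531 CPM with HSD11B1 and at 311, 146, 998 and 1377 CPM without it, and was higher in the injured samples on both sides. CRYAB without HSD11B1 was at 3016, 194, 970 and 650 CPM, lowest in Normal_2, where it had 4 UMIs. WNT2 without HSD11B1 was at 71.8, 0, 184 and 61.9 CPM, so the conditions overlapped. EREG had 0 UMIs in the cells of Injury_2 without HSD11B1.

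The genes were then read by role, in 17 lists with 136 places for genes that could be tested. Across all lists 7 places were called higher and 3 lower, 8 lists held no call, and 43 places had an unadjusted p under 0.05 while DESeq2 called 14. The share called was 10 of 136 against 0.898% of all genes. The lists were chosen with earlier results of these data known, so this share is no independent evidence. Some members below were higher or lower in both injured samples without passing the test, which is a description only. With so few samples, an exact permutation test cannot go below p = 0.3333 even where the conditions do not overlap. The share of all tested genes with such an order is not given, so the order shows no trend.

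For the glucocorticoid pathway, which HSD11B1 feeds, edgeR called 0 of the 7 further genes tested, with 2 at an unadjusted p under 0.05 and 0 called by DESeq2. The median log2 fold change of the list was -0.05, beside -0.01 over all genes. NR3C1, the glucocorticoid receptor, had 213, 173, 93.0 and 118 CPM (log2 fold change -1.02, SE 0.35, adjusted p = 0.27). DUSP1, a phosphatase gene induced by the hormone and by stress, had 103, 391, 703 and 703 CPM (1.40, SE 0.53, adjusted p = 0.31), and KLF9, another target, had 106, 143, 131 and 167 CPM. ANXA1, a mediator of the hormone's anti-inflammatory action, had 2010, 3822, 3687 and 3840 CPM. NR3C1 was lower and DUSP1 higher in both injured samples, but neither passed the test, and such an order alone is no evidence of change. For KLF9 and ANXA1 the conditions overlapped. In the comparison with the other groups, 0 of 7 genes were higher in all 4 samples and 2 were lower, beside 10.4% and 14.3% of all genes.

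Of the iron and copper genes, which belong with ceruloplasmin, STEAP4 rose, the only call among the 4 tested, and the median was 0.26. NCOA4, which delivers ferritin for breakdown, had 191, 120, 259 and 76.5 CPM, and ATOX1, a copper chaperone, had 198, 199, 238 and 223 CPM. Neither gene passed the test. Of the 5 lipid and retinoid genes, LPL fell and the median was -1.31. ALDH1A1, which makes retinoic acid, had 220, 150, 40.7 and 83.5 CPM (log2 fold change -1.81, SE 0.45, adjusted p = 0.13), and PLIN2 had 0.19 (SE 0.42, adjusted p = 0.90).

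Of the 11 fibrillar collagen genes tested, edgeR called 0, with 3 at an unadjusted p under 0.05 and 0 called by DESeq2, and the median was 0.58. COL1A1 had 1258, 5402, 8629 and 9197 CPM (log2 fold change 1.31, SE 0.53, adjusted p = 0.35), and COL1A2 had 7815, 12844, 20515 and 25524 CPM (1.04, SE 0.24, adjusted p = 0.10). COL3A1 had 10938, 18231, 19542 and 27479 CPM, and COL14A1 2254, 2291, 2917 and 2254 CPM. The first 3 collagens were lowest in Normal_1 and higher in both injured samples, while COL14A1 overlapped between conditions. Against the other 3 groups, 8 of 13 genes of the list were lower in the group in all 4 samples and 0 were higher, beside 14.3% and 10.4% of all genes. COL1A2, for example, stood at 20739, 30857, 31984 and 42186 CPM outside the group.

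Of the 9 basement membrane genes edgeR called 0, with 0 at an unadjusted p under 0.05 and 0 called by DESeq2, and the median was 0.16. Of the 9 genes, 3 were higher in the group than in the other groups in all 4 samples (NID2, LAMA2 and COL4A2) and 1 was lower (LAMA4). Over all genes, 10.4% were higher and 14.3% lower in all 4 samples. LAMA2, a laminin chain, stood at 766, 685, 308 and 591 CPM against 371, 284, 288 and 305 CPM, and COL4A2, a collagen IV chain, at 241, 414, 415 and 744 CPM against 179, 290, 351 and 406 CPM. LAMA2 was nearest to the other groups in Injury_1, where its log2 ratio was 0.09.

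Of the 13 genes of the provisional and elastic matrix, COCH rose and the median was 0.81. FN1, fibronectin, had 1209, 2065, 3623 and 5238 CPM (log2 fold change 1.32, SE 0.32, adjusted p = 0.12). VCAN had 142, 282, 514 and 675 CPM (1.37, SE 0.38, adjusted p = 0.18). CCN1 and THBS1, secreted matricellular proteins, had 1272, 4774, 3806 and 5204 CPM and 1152, 2370, 2228 and 1405 CPM. FN1 and VCAN were higher in both injured samples without passing the test, and CCN1 and THBS1 overlapped between conditions. Of the 11 proteases and inhibitors, CPXM1 rose and the median was 0.54. TIMP1, an inhibitor of matrix metalloproteases, had 1531, 1889, 5378 and 2157 CPM, and MMP2, a gelatinase, 691, 658, 1270 and 1287 CPM, with adjusted p of 0.33 and 0.27.

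Of the 9 chemokine and cytokine genes, CXCL8 and CCL19 rose and the median was 1.12. CCL2, which draws monocytes, had 415, 704, 1656 and 1050 CPM (log2 fold change 1.16, SE 0.36, adjusted p = 0.21). NFKBIA and NFKBIZ, which encode proteins that bind and regulate NF-kappaB, had 1747, 4733, 2772 and 3924 CPM and 369, 534, 567 and 591 CPM. Neither of them passed the test. Of the 12 growth factor genes, EREG rose and the median was 1.22. AREG, amphiregulin, a second ligand of the same receptor, had 138, 30.1, 593 and 209 CPM (2.15, SE 0.67, adjusted p = 0.21). IGFBP5 had 840, 1347, 723 and 744 CPM, and IGFBP6 fell short of a call at -0.97 (SE 0.27, adjusted p = 0.18).

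Of the 10 WNT, BMP and TGF-beta genes, WNT2 rose and the median was 0.53. BMP4 had 138, 192, 349 and 341 CPM (log2 fold change 0.95, SE 0.31, adjusted p = 0.25), and ID1, a target of BMP signals, had 883, 1448, 994 and 1725 CPM with overlap between the conditions. INHBA, a subunit of activin, had 56.7, 56.4, 456 and 48.7 CPM, high in Injury_1 alone. Of the 6 contractile genes edgeR called 0, with 0 at an unadjusted p under 0.05 and 0 called by DESeq2, and the median was 0.30. In the comparison with the other groups 5 of 7 contractile genes were lower in all 4 samples, beside 14.3% of all genes. CALD1 was higher in all 4 samples, as were 10.4% of all genes, at 737, 948, 1116 and 960 CPM against 612, 777, 833 and 784 CPM. Tpm2, a tropomyosin, was at 152, 305, 311 and 348 CPM against 220, 568, 434 and 514 CPM.

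Of the 12 immediate early and heat shock genes, HSPA8 fell and the median was -0.37. HSPB1, another small heat shock protein, had 9673, 10722, 5000 and 6372 CPM (log2 fold change -0.96, SE 0.20, adjusted p = 0.07). JUN and IER3, which answer to stress and to tissue dissociation, had 3328, 3506, 2548 and 3402 CPM and 4810, 8638, 7397 and 7033 CPM. ZFP36 and BTG2, chosen after their values were seen, had 223, 2746, 1726 and 1753 CPM and 287, 1798, 1069 and 1503 CPM, which set Normal_1 below the other 3 libraries. Of the 12 xenobiotic, redox and aldehyde genes, CYP4B1 fell and the median was -0.09. FMO2, a flavin monooxygenase, had 337, 504, 134 and 243 CPM (-1.32, SE 0.39, adjusted p = 0.19), and TXN, thioredoxin, had 1209, 1783, 2586 and 1899 CPM. HSPB1 and FMO2 were lower in both injured samples without passing the test.

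In the 4 remaining lists edgeR called 0 genes: 4 complement genes (2 at an unadjusted p under 0.05, 1 called by DESeq2, median 0.14), 3 proliferation genes (0, 0, median -0.01), 4 interferon genes (1, 0, median 0.69) and 4 stromal transcription factors (0, 0, median -0.22). CLU, clusterin, an inhibitor of the terminal complement pathway, had 202, 113, 1252 and 466 CPM (log2 fold change 2.33, SE 0.51, adjusted p = 0.09). C1R, a protease of the classical complement pathway, had 2120, 2325, 3126 and 3624 CPM, higher in both injured samples without passing the test. TOP2A, a gene of dividing cells, had 99.2, 7.52, 46.5 and 230 CPM, with no order between the conditions.

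The injury effect in the group was then set against that in the other 3 fibroblast groups within the same samples, by an edgeR quasi-likelihood test of the interaction with a term for each sample. The test called 21 of 6282 genes (0.334%), 6 with a higher effect in the group (0.0955%) and 15 with a lower one (0.239%), and 16 of them carry a symbol. Against the TCF21 EDIL3 group alone, 4 of the 21 were also called, and against the SFRP2 PCOLCE2 group alone, 16 were. SFRP2 PCOLCE2 cells made up 49.2% and 45.7% of the other 3 groups in the normal samples and 77.9% and 66.6% in the injured ones. The part of this shift in the differences was not tested.

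FN1 had 1209, 2065, 3623 and 5238 CPM in the group and 1701, 2880, 2848 and 2994 CPM in the other groups. The group lay below the others in both normal samples and above them in both injured samples, and its injury effect was higher by 0.88 on the log2 scale (SE 0.16, adjusted p = 0.00231). COL1A1 had 3643, 12854, 13010 and 15197 CPM in the other groups and was lower in the group in each sample, with the gap smaller after injury (difference of effects 0.55, SE 0.13, adjusted p = 0.0334). COL1A2 differed in the same direction (0.47, adjusted p = 0.0178).

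ADAMDEC1, a disintegrin-type metalloprotease of mucosal stroma, had 362, 79.0, 909 and 487 CPM in the group and 181, 227, 108 and 199 CPM outside it (difference 2.10, SE 0.45, adjusted p = 0.0170). In Injury_1, 90 of its 313 UMIs came from 1 cell. KRT16, a keratin of activated epithelium, had 10.6, 15.05, 78.4 and 285 CPM (difference 2.74, SE 0.60, adjusted p = 0.0178), but 21 of 27 UMIs in Injury_1 and 34 of 41 in Injury_2 came from 1 cell each. MMP10, stromelysin-2, had no UMI in either normal sample, 30 UMIs in 4 cells of Injury_1, 16 of them in 1 cell, and 1 UMI in Injury_2 (fitted difference 10.73, SE 2.42, adjusted p = 0.0252). Since the normal samples held none, this fitted value depends on the prior count and is no measure of size, and Injury_2 with its 1 UMI did not stand above them at this depth. MMP10 had 31.2, 17.1, 38.2 and 26.5 CPM in the other groups. KRT16 and MMP10 were thus carried by 1 to 4 cells in each injured sample.

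In the opposite direction, CCL2 had 148, 240, 1313 and 941 CPM in the other groups. The group had the higher level in each sample, by log2 ratios of 0.16 to 1.51, and its injury effect was lower (difference -1.44, SE 0.20, adjusted p = 9.18e-05). TNFAIP6, a hyaluronan-binding protein induced by inflammation, had 163, 677, 1514 and 737 CPM in the group and 111, 193, 1226 and 754 CPM outside it (difference -1.32, SE 0.26, adjusted p = 0.00665). CHI3L1, a chitinase-like glycoprotein, had 28.4, 56.4, 305 and 62.6 CPM against 5.36, 11.04, 212 and 51.8 CPM (difference -2.05, SE 0.46, adjusted p = 0.0247). In all 3 genes the group was nearer to the others after injury than in normal mucosa. In Normal_2, 150 of the 187 CCL2 UMIs of the group came from 1 cell. The higher CCL2 level of the group in Normal_2, which gave the ratio of 1.51, thus rests on that cell.

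CYP4B1 had 325, 258, 118 and 45.4 CPM in the other groups, so the group was the higher one in both normal samples and the lower one in both injured samples (difference -2.17, SE 0.33, adjusted p = 0.000263). GSTA5, a glutathione S-transferase, had 525, 339, 116 and 139 CPM in the group and 528, 227, 369 and 292 CPM outside it (difference -1.88, SE 0.29, adjusted p = 0.000263). Keratin-detected cells had 338, 221, 3455 and 2516 CPM of CYP4B1 and 7299 to 12535 CPM of GSTA5, and the part of epithelial RNA in these differences was not tested. SPARCL1 (-0.93, adjusted p = 0.0196), JUN (-0.87, adjusted p = 0.00153), DKK1 (-1.85), ITM2A (-1.21) and GADD45G (-1.07) were also called with a lower injury effect in the group.

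**Figure D5:**
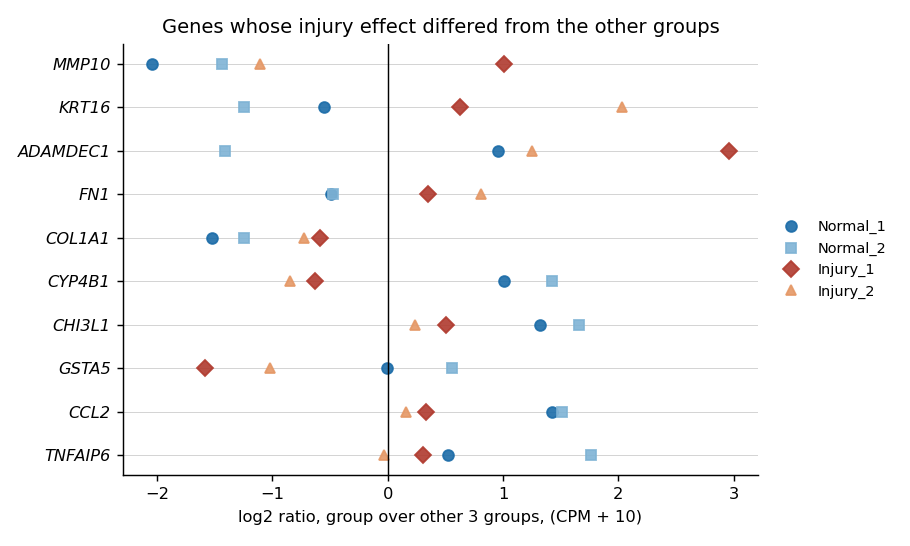
Log2 ratio of the level in the APOD CP HSD11B1 group over that in the other 3 groups, as CPM + 10, in each of the 4 samples for the 10 genes named in the difference of injury effects. FN1 and CYP4B1 change sides between normal and injured samples in opposite directions.

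Several of these calls were also lost when 1 library was left out. Without Normal_2 the adjusted p was 0.609 for KRT16, 0.214 for ADAMDEC1, 0.0523 for COL1A1, 0.522 for CHI3L1 and 1 for TNFAIP6. Without Injury_1 it was 0.960 for MMP10, 0.277 for ADAMDEC1, 0.352 for COL1A1 and 0.0811 for CHI3L1. Without Injury_2 it was 0.183 for KRT16 and 0.0538 for FN1, and without Normal_1 it was 0.263 for MMP10 and 0.422 for COL1A1. The differences were then 2.22 and 2.00 for KRT16, 1.08 and 1.05 for ADAMDEC1, 0.68, 0.44 and 0.46 for COL1A1, -2.11 and -2.31 for CHI3L1, -0.60 for TNFAIP6 and 0.68 for FN1, in the order given, and of these ADAMDEC1 and TNFAIP6 moved by over 1.5 times. CCL2, CYP4B1 and GSTA5 were called with each library left out in turn, although none of the 3 was called against the TCF21 EDIL3 group alone, where the adjusted p was 0.797, 0.204 and 0.117. Over all alternatives the highest adjusted p was 0.960 for MMP10, 0.938 for KRT16, 0.797 for ADAMDEC1 and CCL2, 0.822 for FN1, 0.446 for COL1A1, 0.999 for CHI3L1, 1 for TNFAIP6, 0.204 for CYP4B1 and 0.420 for GSTA5.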

How the data were processed

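Single-cell suspensions of bladder mucosa of 2 normal and 2 injured samples were run on the 10x platform, 1 library per sample. The authors made the deposited UMI counts per gene and barcode with Cell Ranger 6.0.1, and the genome build is not given in the sources used here, so no positions or sequences are printed. The counts are whole numbers without normalization, over 18475 genes, of which 9771 carry a symbol.

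Barcodes were kept from 500 UMIs and 200 genes upward, where no more than 15% of the UMIs fell on 13 mitochondrial genes. Doublets were not removed in the main analysis, and leaving out the 5% of cells with the highest Scrublet scores was an alternative. UMIs were summed per sample and group. For tests across genes, edgeR 4.0.16 in R 4.3.3 was used (filterByExpr, TMM, then glmQLFit and glmQLFTest), with Benjamini-Hochberg adjustment and a threshold of 0.05. DESeq2 1.42.0 was an alternative. Where the study's methods compare single cells, sums per sample were tested here, since cells of 1 animal are not replicates. Scripts ran in Python 3.11.15 with numpy 2.4.6, scipy 1.17.1, pandas 2.3.3, scanpy 1.11.5 and matplotlib 3.10.9.

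The genes named were the 10 with the largest rise and fall among called genes with a symbol, at least 20 CPM in the higher condition and no overlap between conditions, the 5 largest differences of effect in each direction by the same rule, the 15 genes with the largest lowest ratio over the other groups and the 10 with the smallest highest ratio (at least 50 CPM), the genes of the gates, and of each list its called members and up to 4 members of highest level. COL1A2, SPARCL1, JUN, DKK1, ITM2A and GADD45G in the difference of effects were named after their values were seen. The cells and gene lists were chosen with earlier results of these data known. Data were also simulated with 1 common spread for all genes, taken from the group's sums, and with no effect shared by the sums of a sample. There the injury test recovered 14.3% of genes changed 2-fold and 78.5% of those changed 4-fold, with 7 of 93 calls false among 2453 genes. The test of the difference recovered 1% and 14% with 0 of 15 calls false among 6129 genes. Genes of the real data differ in spread, so these rates may not hold for them.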

Additional observations from a re-analysis of the deposited data

Results flagged for a closer look

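The 10 genes named had injury effects that differed between the APOD CP HSD11B1 group and the other 3 fibroblast groups by edgeR's quasi-likelihood test of the interaction, with Benjamini-Hochberg adjustment. The effect was higher in the group, on the log2 scale, by 10.73 for MMP10, 2.74 for KRT16, 2.10 for ADAMDEC1, 0.88 for FN1 and 0.55 for COL1A1. It differed by -2.17 for CYP4B1, -2.05 for CHI3L1, -1.88 for GSTA5, -1.44 for CCL2 and -1.32 for TNFAIP6. The values of MMP10 and KRT16 rest on 1 to 4 cells per injured sample, and that of MMP10, which had no UMI in the normal samples of the group, depends on the prior count. No explanation of these differences was tested.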

How the results depend on the processing

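The counts of called genes moved with the processing, while the direction of each of the 22 injury calls was the same in each alternative in which it was tested. Against 8 genes higher and 14 lower after injury, the counts were 69 and 54 with no filter on low counts, 2 and 6 with at most 10% mitochondrial UMIs, 3 and 3 with the gate applied at 2000 UMIs per cell, 3 and 6 without the top doublet scores, 3 and 5 with sums thinned to the lowest total, and 17 higher with DESeq2. They were 5 higher with at least 3 group genes. A pair of alternatives on cells was chosen after seeing the data, with 4 and 8 for HSD11B1-detected cells and 1 and 1 without cells with markers of other types. Leaving out 1 sample gave 17 to 38 higher (17 without Normal_1, 22 without Normal_2, 24 without Injury_1, 38 without Injury_2) and 22 to 27 lower, where the lone sample of a condition is assumed to vary like the others. The cause was not tested in these cases.

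With the replicate block the counts were 76 and 68, and all 22 genes were among them. The deviations of same-numbered samples correlated at 0.04 across 2463 genes. This value, from sums of 19 to 65 cells, cannot show whether such samples shared a batch. The labels give only the number, so the fit without the block was kept as the main one.

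For the difference of injury effects, 6 higher and 15 lower became 14 and 28 with no filter, 10 and 30 without the top doublet scores, 3 higher at 2000 UMIs and 2 lower against the TCF21 EDIL3 group (added after seeing the data). Leaving out 1 sample gave 4 to 15 higher and 8 to 27 lower, with 8 without Normal_2 and 15 and 27 without Injury_2. CHI3L1 turned to 0.0085 at 2000 UMIs (adjusted p = 0.999, and 0.00484 to 0.999 over its 11 alternatives). The 5 genes at least 0.5 higher than in the other groups became 9 with a pseudocount of 1, 2 with a pseudocount of 50 and 9 at 2000 UMIs. The difference in share stayed negative in all alternatives, from -5.29 to -0.674 percentage points with 1 sample left out. Whether the conditions overlapped in share depended on the setting.

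With 2 samples a condition and 19 cells in Injury_2, few changes of 2-fold can be called, and genes that missed the threshold are not shown to be unchanged.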
